A study of Mus musculus with 6 samples.

Results

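Sialyltransferases are Golgi enzymes that cap the sugar chains of glycoproteins and glycolipids with sialic acid, taken from the activated donor CMP-sialic acid. The ST3Gal enzymes join it to galactose, St6gal1 joins it to the galactose of N-glycans through another linkage, and the ST6GalNAc enzymes join it mainly to the N-acetylgalactosamine of O-glycans. On leukocytes these caps shape binding by selectins, galectins and Siglecs. The transcripts of 10 sialyltransferases were followed here among the 17831 genes of a bulk RNAseq count table of lung ILC2s, the type 2 innate lymphoid cells that release IL-5 and IL-13 after IL-33. They were chosen by class (ST3Gal, ST6Gal and ST6GalNAc), beside St6galnac2, which was itself selected on its large rise in SIRPα KO. The values of St6galnac2 are therefore a description without a test, and the question put to the data was whether the relatives outside its locus also move.

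The libraries were 3 from WT mice (genotype label CB57BL/6) and 3 from SIRPα KO mice (genotype label SIRPalphatm1Ynliu/J), aged 6 to 8 weeks. All mice received 0.5 µg of rmIL-33 intranasally on 3 days. ILC2s were sorted on day 4 as CD45+ lineage- CD127+ ST2+ cells and then kept in culture with the cytokines rmIL-2 and rmIL-7, for 18 h by the results text or 24 h by a legend, and cDNA was amplified from 10 pg of RNA. The table gives estimated reads per gene, with 13980491 to 19051504 reads in a library, and values below are reads, or reads scaled to library size by TMM (CPM). The labels give WT replicates 1 and 2 a shared code, 37, and SIRPα KO replicates 2 and 3 a shared code, 44, and the design text of the series speaks of duplicates. If libraries of a code come from the same sample, each group holds 2 samples and the adjusted p values below are too small. Nothing says that the remaining libraries come from separate animals, and differences between the strains other than the SIRPα allele cannot be told apart from its loss.

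The 13 ILC2 markers examined were each present above 3 reads in every library, and their sums were 15500 to 16600 CPM for WT and 21300 to 21800 CPM for SIRPα KO. Of these 13, 3 rose and 1 fell (edgeR adjusted p under 0.05), beside 5.94% higher and 5.81% lower of all genes tested. Sirpa, the targeted gene, had few reads throughout, with 73 to 149 per WT library and 28 to 85 per SIRPα KO library. In CPM it was at 8.57, 6.83 and 4.83 in WT and 3.07, 4.46 and 1.74 in SIRPα KO. These ranges were separate, which was so for 42.8% of all genes tested. The log2 fold change of Sirpa was -1.12 (95% interval -2.1 to -0.15, edgeR adjusted p = 0.115). B cell markers had sums of 218 to 479 CPM for WT and 23.5 to 86.2 CPM for SIRPα KO. At the same threshold 5 of the 7 in the table fell, beside 5.81% of all genes. T cell markers had sums of 18.6 to 23.5 CPM for WT and 4.77 to 5.56 CPM for SIRPα KO, and 1 of the 6 in the table fell, beside the same 5.81%. The biological coefficient of variation estimated by edgeR was 38.2% for WT and 15.3% for SIRPα KO. In bulk RNA, fewer cells that use a gene and less RNA per cell cannot be told apart.

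St6galnac2, which sialylates the N-acetylgalactosamine of O-glycans, was counted with 54, 12 and 0 reads in WT replicates 1, 2 and 3, against 2364, 2986 and 2572 reads in the SIRPα KO replicates. In CPM these were 3.11, 0.853 and 0 for WT and 151, 157 and 160 for SIRPα KO. The transcript was thus low or absent in every WT library and at a narrow, high level in every SIRPα KO library. The WT mean was 1.32 ± 1.60 CPM and the SIRPα KO mean 156 ± 4.29 CPM (SD, n = 3 each), a ratio of 118. Its log2 fold change was 6.82 (SE 0.74), and it was 8.53 without WT replicate 1, which held most of the WT reads, and 6.24 without WT replicate 3, which held none. The gene lies on chromosome 11 of mm10 from 116675303 to 116694868 on the minus strand, and the annotation gives its symbol 2 gene IDs that the table joins in a single column.

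**Figure D1:**
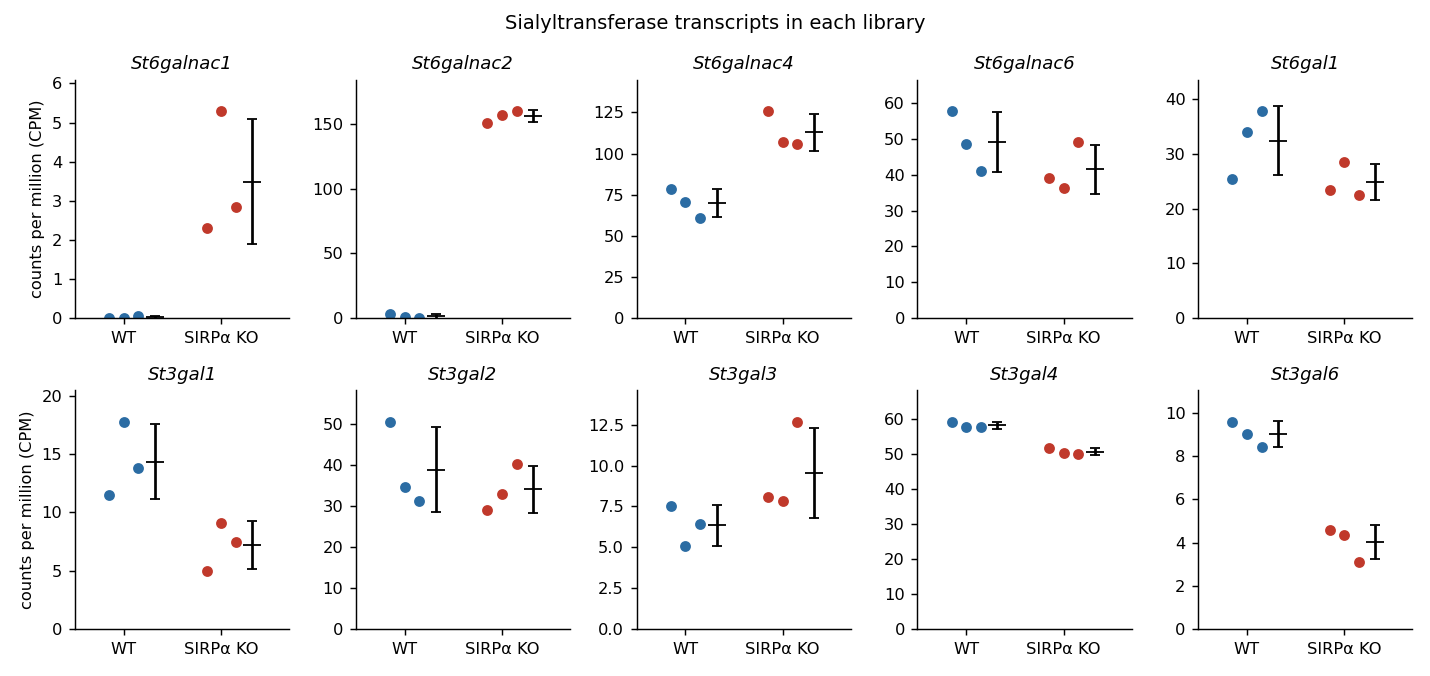
CPM of each sialyltransferase (y axis, linear, its own scale in each panel) in the 3 WT libraries (blue) and the 3 SIRPα KO libraries (red), with mean ± SD in black (n = 3 each). St6galnac1 and St6galnac2 are near 0 in WT, St6galnac4 is higher and St3gal6 lower in every SIRPα KO library, and the groups overlap for St6galnac6, St6gal1 and St3gal2.

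Among the 9 other sialyltransferases, St6galnac4 rose, St3gal6 fell, and 6 did not pass the threshold (adjusted p under 0.05 from edgeR's quasi-likelihood test, over the 13623 genes tested). St6galnac1 passed it as well, but it entered the test through its SIRPα KO reads alone and is described by its reads. Of the 8 that lie away from chromosome 11, 1 rose and 1 fell. Across all genes tested 11.7% passed the threshold, 5.94% higher and 5.81% lower. The 2 of 8 are a larger share than that background but only 2 genes, and nothing particular to the family is read from them. The median log2 fold change of the 8 was -0.22, with 2 higher and 6 lower, beside -0.025 over all genes tested. For 5 of the 8 the ranges of both groups were separate, which was so for 42.8% of all genes tested. With any single SIRPα KO replicate left out, or with libraries of a shared code summed, 0 of the 9 genes passed the threshold in edgeR. Of the 8 away from chromosome 11, St6galnac4, St3gal6 and St3gal1 then had an unadjusted p under 0.05 in each of these fits. The share of all genes tested with such a p was 21%, 20.7% and 22.5% without SIRPα KO replicate 1, 2 or 3, and 23% with the codes summed. At the adjusted threshold, 16, 17 and 17 of all genes passed without SIRPα KO replicate 1, 2 or 3, and 10 with the codes summed.

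**Figure D2:**
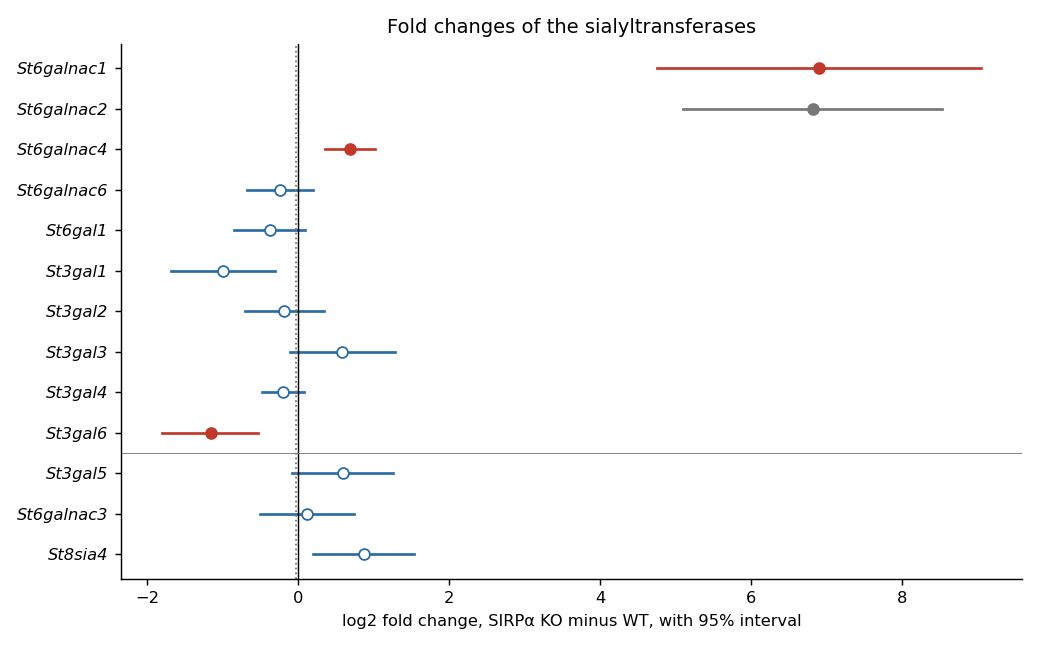
Log2 fold change (SIRPα KO minus WT, points) with its 95% interval (lines) from edgeR for the 10 sialyltransferases and, under the thin line, 3 further ones of the table. Filled red points passed the threshold, open blue points did not, and St6galnac2 is grey because it was selected on this value. The dotted line is the median of all genes, -0.025. St6galnac1 entered the test only through its SIRPα KO reads, so its filled point and interval are a description. The fold change of St6galnac1 depends on the prior count, since WT held 1 read. Away from St6galnac1 and St6galnac2, points lie between -1.16 and 0.87.

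St6galnac1, the enzyme that makes the sialyl-Tn structure on mucins, had 0, 0 and 1 reads in WT and 36, 101 and 46 in SIRPα KO. All reads but 1 were thus in SIRPα KO libraries, at 2.30, 5.30 and 2.85 CPM. The ratio of the CPM pooled over each group was 168, with an exact 95% counting interval of 29.7 to 6660. Since St6galnac1 passed the filter on low counts only through the SIRPα KO libraries, no test is given for it. The gene lies on chromosome 11 from 116765025 to 116775507 on the minus strand, 70.2 kb beyond the start of St6galnac2, within the same neighbourhood. Its reads are uncertain because the pseudogene Gm11735, which lies between both genes, has a transcript 98.0% identical to it. Gm11735 was at 0 in each WT library and at 18, 16 and 4 reads in SIRPα KO. St6galnac1 is best known from mucous epithelium. Of the epithelial markers, Muc5ac and Muc5b, which define mucous cells, were not analysed here, and the 6 others had sums of 52.0 to 78.9 CPM for WT and 8.63 to 75.1 CPM for SIRPα KO. Of these 6 only Epcam passed the threshold, and it was lower in SIRPα KO (log2 fold change -1.18, edgeR adjusted p = 0.0354). Across all genes tested 5.81% were lower at that threshold. Of the 14 alternatives 6 called Epcam, and in edgeR it did not pass in any fit that left out a SIRPα KO replicate. Scgb1a1, a club cell product, was at 39.7, 47.9 and 34.8 CPM in WT and at 0.0639, 56.3 and 60.8 CPM in SIRPα KO. It was thus near 0 in SIRPα KO replicate 1 and above every WT library in replicates 2 and 3. St6galnac1 had 36 reads in that replicate 1, against 101 and 46 in replicates 2 and 3. In WT, where Scgb1a1 was present in every library, St6galnac1 had 0, 0 and 1 reads. The part of epithelial cells in the St6galnac1 values was not tested.

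St6galnac4, which adds sialic acid to an O-glycan core that already carries a first one, was the member away from chromosome 11 that rose. It had WT levels of 78.5, 70.5 and 61.0 CPM and SIRPα KO levels of 126, 107 and 106 CPM. Every SIRPα KO library lay above every WT library. The means were 70.0 ± 8.79 CPM and 113 ± 11.1 CPM (SD, n = 3 each), a ratio of 1.61. The log2 fold change was 0.69 (SE 0.14, edgeR adjusted p = 0.0268). The estimate stayed between 0.59 and 0.78 in the 14 alternative analyses, and 10 of them put its adjusted p under 0.05. The exceptions were the fits without SIRPα KO replicate 1, 2 or 3 (adjusted p = 0.138, 0.124 and 0.102 from edgeR) and with the codes summed (edgeR adjusted p = 0.138).

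St6galnac6, which sialylates gangliosides and related chains, is the immediate neighbour of St6galnac4. On chromosome 2 St6galnac4 spans 32587095 to 32599698 and St6galnac6 spans 32599709 to 32620806, both on the plus strand, with 10 bases between them. For St6galnac6 no change passed the threshold. It had WT levels of 57.8, 48.6 and 41.1 CPM and SIRPα KO levels of 39.1, 36.3 and 49.2 CPM, and the groups overlapped. Its log2 fold change was -0.24 (95% interval -0.68 to 0.19, edgeR adjusted p = 0.400). The ratio of St6galnac4 to St6galnac6 reads within a library, which needs no scaling between libraries, was 1.36, 1.45 and 1.48 in WT and 3.21, 2.95 and 2.15 in SIRPα KO. The means were 1.43 ± 0.0647 and 2.77 ± 0.551 (SD, n = 3 each), and the groups did not overlap. The two-sided exact permutation test gave p = 0.1, the smallest that 3 libraries against 3 allow. The pair was chosen for this ratio after the values were seen. Groups that do not overlap can give only that p here, so no support is drawn from the test.

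The ST3Gal class, which caps galactose on O-glycans, N-glycans and gangliosides, was mixed. St3gal6, which contributes to selectin ligands, had WT levels of 9.60, 9.03 and 8.41 CPM and SIRPα KO levels of 4.60, 4.36 and 3.10 CPM. The groups were well apart, and the scatter within each was small. The means were 9.01 ± 0.597 CPM and 4.02 ± 0.805 CPM (SD, n = 3 each), a ratio of WT to SIRPα KO of 2.24. The log2 fold change was -1.16 (SE 0.28, edgeR adjusted p = 0.0367), on 127 to 167 reads in a WT library and 50 to 83 in a SIRPα KO library. Its adjusted p was 0.0665 from edgeR without WT replicate 1, and 0.132, 0.141 and 0.140 without SIRPα KO replicate 1, 2 or 3. The gene lies on chromosome 16 from 58468125 to 58524243, and Dcbld2 overlaps it by 1603 bases on the other strand. Dcbld2 had 67, 12 and 40 reads in WT and 25, 5 and 22 in SIRPα KO.

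St3gal1, which caps the core 1 O-glycan, had WT levels of 11.5, 17.8 and 13.8 CPM and SIRPα KO levels of 4.99, 9.13 and 7.44 CPM. Every SIRPα KO library was under every WT library, but the spread was wider than for St3gal6. Its log2 fold change of -0.99 (95% interval -1.68 to -0.31) had an adjusted p of 0.0662 in edgeR. The adjusted p was 0.0182 with DESeq2, 0.0482 in edgeR with upper quartile factors and 0.0362 in edgeR with an offset for transcript length and GC content, so the call depends on the analysis.

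St3gal4, which makes selectin and Siglec ligands, had WT levels of 59.3, 57.6 and 57.7 CPM and SIRPα KO levels of 51.8, 50.4 and 49.9 CPM. The libraries of a group agreed closely, the groups did not overlap, and the ratio of the means was 0.871. The log2 fold change of -0.20 (95% interval -0.48 to 0.08) did not pass the threshold (edgeR adjusted p = 0.294). St3gal2, a second enzyme of O-glycan and ganglioside chains, had WT levels of 50.6, 34.7 and 31.1 CPM and SIRPα KO levels of 29.1, 32.9 and 40.3 CPM. The groups overlapped, and the log2 fold change was -0.19 (95% interval -0.71 to 0.34, edgeR adjusted p = 0.596). St3gal3, which acts mainly on N-glycans, had WT levels of 7.53, 5.05 and 6.42 CPM and SIRPα KO levels of 8.05, 7.82 and 12.7 CPM. Its log2 fold change of 0.58 (95% interval -0.11 to 1.28) had an adjusted p of 0.218 in edgeR, although the groups did not overlap.

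St6gal1, the main enzyme for the other galactose linkage on N-glycans and a maker of the CD22 ligand on B cells, had WT levels of 25.5, 34.0 and 37.9 CPM and SIRPα KO levels of 23.5, 28.6 and 22.6 CPM. The groups overlapped. The log2 fold change was -0.38 (95% interval -0.85 to 0.09, edgeR adjusted p = 0.232). B cells use St6gal1, and their markers were lower in SIRPα KO, with Cd79a at WT levels of 3.97, 3.48 and 8.34 CPM and SIRPα KO levels of 0.383, 0.157 and 0.496 CPM. Their part in the St6gal1 values was not tested.

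For the genes away from chromosome 11 that passed the threshold, the promoter windows of RefSeq (GRCm38.p6, 250 bases before to 50 bases after a start) are shown, because these 2 genes moved in opposite directions. Capitals mark the GC box GGGCGG on either strand, the motif of SP factors.
St6galnac4, chr2:32586828-32587127, plus strand: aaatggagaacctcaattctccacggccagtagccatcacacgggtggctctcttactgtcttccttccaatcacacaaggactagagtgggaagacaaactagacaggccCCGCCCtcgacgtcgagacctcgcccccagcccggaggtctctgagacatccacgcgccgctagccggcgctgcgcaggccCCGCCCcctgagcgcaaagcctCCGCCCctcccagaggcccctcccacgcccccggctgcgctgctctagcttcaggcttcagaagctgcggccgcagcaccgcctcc
St3gal6, upstream start, chr16:58524204-58524503, minus strand: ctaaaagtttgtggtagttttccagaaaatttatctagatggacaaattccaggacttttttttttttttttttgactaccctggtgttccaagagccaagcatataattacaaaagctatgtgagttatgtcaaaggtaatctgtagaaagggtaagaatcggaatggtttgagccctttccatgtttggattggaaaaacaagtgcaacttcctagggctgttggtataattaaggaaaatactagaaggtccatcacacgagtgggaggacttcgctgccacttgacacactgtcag
St3gal6, downstream start, chr16:58523377-58523676, minus strand: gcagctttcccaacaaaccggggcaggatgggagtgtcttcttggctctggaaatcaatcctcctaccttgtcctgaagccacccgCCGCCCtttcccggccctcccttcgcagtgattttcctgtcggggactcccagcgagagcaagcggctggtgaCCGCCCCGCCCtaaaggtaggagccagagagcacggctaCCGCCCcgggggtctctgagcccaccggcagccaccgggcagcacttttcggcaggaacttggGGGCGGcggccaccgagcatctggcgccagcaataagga
The window of St6galnac4 held 3 GC boxes, and that of the downstream start of St3gal6 held 5, where a pair of them overlap, while the upstream one held 0. Of the 6 members with a window, 5 held a GC box. Among these were St3gal4 with 3, St3gal3 with 2 and St6gal1 with 1, none of which passed the threshold. The GC box is thus not particular to the genes that moved, and it was found in 35.7% of the 32851 promoter windows of that length. TATAAA, in 13.6% of all windows, and TTCNNNGAA, the core to which STAT factors bind, in 8.3%, were searched on either strand too, and neither was in any of the 9 windows available for 6 of the 10 genes. These matches describe the letters of the windows only.

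Levels of different genes were compared as CPM per kb of the longest annotated transcript. In WT, St3gal4 stood first with 27.8 ± 0.471 CPM per kb, followed by St6galnac6 with 19.4 ± 3.30 and St6galnac4 with 17.5 ± 2.20 (SD, n = 3 each). The ranges of St6galnac6 and St6galnac4 overlapped. St3gal2 (8.83) and St6gal1 (7.20) came next and overlapped too. St3gal1 (2.50), St3gal3 (2.49) and St3gal6 (2.19) overlapped in the same way, and St6galnac2 (0.362) and St6galnac1 (0.00923) stood last. In SIRPα KO the order was led by St6galnac2 with 42.8 ± 1.18 CPM per kb and St6galnac4 with 28.2 ± 2.77, ahead of St3gal4 with 24.2 ± 0.470 (SD, n = 3 each). Each of the first 7 genes of that order was above the next in all 3 SIRPα KO libraries without overlap of the ranges, down to St6galnac1. St6galnac1 (1.46), St3gal1 (1.25) and St3gal6 (0.975) closed the order, each overlapping the next. With the median transcript length in place of the longest, St3gal4 still led in WT (99.2 CPM per kb), but St3gal2 was then second (66.8). In SIRPα KO, St6galnac2 still led (128) with that length, but St3gal4 (86.3) and St3gal2 (58.7) then stood above St6galnac4 (39.9), so the order depends on the length used.

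Summed over the 10 genes, the level was 88.3 ± 7.36 CPM per kb in WT and 132 ± 3.21 in SIRPα KO (SD, n = 3 each). St6galnac2 held 0.887%, 0.268% and 0% of that sum in the 3 WT libraries and 31.7%, 33.1% and 32.2% of it in the 3 SIRPα KO libraries. Without St6galnac1 and St6galnac2, the sum was 95.2, 87.0 and 81.4 in WT and 88.5, 84.6 and 90.9 in SIRPα KO. The summed level of the other 8 genes thus overlapped between the groups, while its make-up moved. In CPM without regard to length, these 8 summed to 278 ± 21.5 in WT and 285 ± 7.77 in SIRPα KO (SD, n = 3 each). The ST3Gal class summed to 47.1, 42.7 and 41.6 CPM per kb in WT and 36.5, 37.2 and 40.0 in SIRPα KO.

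**Figure D3:**
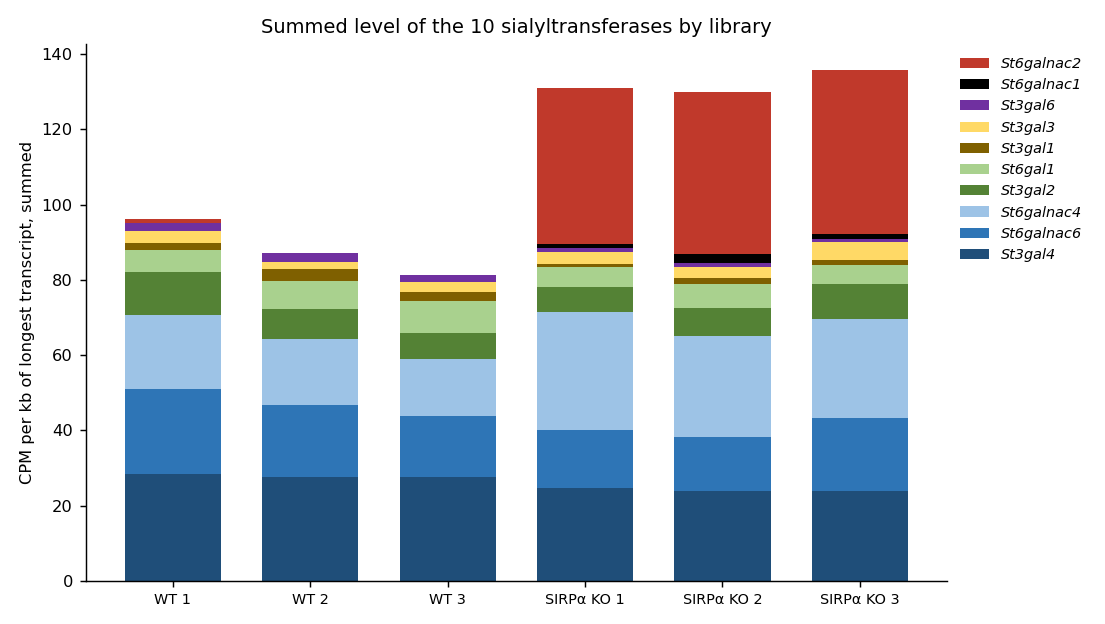
Stacked level of the 10 sialyltransferases (y axis, CPM per kb of longest transcript, from 0) in each of the 6 libraries. The red block, St6galnac2, is at most 0.887% of the bar in WT and 31.7% to 33.1% in SIRPα KO, and the other 8 genes without St6galnac1 add up to between 81.4 and 95.2 in every library.

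The genes of the table nearest to St6galnac2 were higher in SIRPα KO as well. Of the 17 genes of the table within 250 kb of it, 14 others were tested and 8 of these passed the threshold, 5 higher and 3 lower, beside 11.7% of all genes. This window was set with the rise of St6galnac2 known, and 4 of the 5 higher genes (Cygb, BC018473, St6galnac1 and Mxra7) passed the filter on low counts only through SIRPα KO, so the count is a description. Between Cygb and Mxra7, over 182.5 kb, lie 7 genes of the table. All of them were higher in every SIRPα KO library than in any WT library. The groups were also apart for Rhbdf2 and Jmjd6 just outside this stretch, and for 42.8% of all genes tested. Cygb, which encodes the heme protein cytoglobin, had 0 reads in every WT library and 65, 78 and 69 in SIRPα KO, at least 21.4-fold higher against a floor of 3 reads per library. Cygb is known from fibroblasts, and the fibroblast markers Col1a1, Col1a2 and Pdgfra were not analysed here. Of the endothelial markers, Pecam1 was at 16.2 to 27.4 CPM in WT and 40.3 to 43.8 CPM in SIRPα KO. Kdr, the other one in the table, had 0, 2 and 0 reads in WT and 0, 0 and 22 in SIRPα KO. The part of endothelial cells in these values was not tested. Mxra7, named as a matrix-remodelling gene, had 0 reads in WT and 149, 165 and 186 in SIRPα KO, at least 50.8-fold higher. BC018473, an RNA annotated as antisense that lies between St6galnac2 and St6galnac1, had 9, 21 and 22 reads in WT and 11510, 13359 and 11699 in SIRPα KO. It reached 721 ± 17.8 CPM in SIRPα KO (SD, n = 3), from 1.16 ± 0.553 CPM in WT (SD, n = 3). Across all genes tested, 7 (0.0514%) had at most 3 reads in every WT library and at least 30 in every SIRPα KO library. Of these, 3 lay in this window (Cygb, St6galnac1 and Mxra7). The opposite pattern was seen for 3 genes.

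Snhg16, a host gene of small nucleolar RNAs, overlaps the last 497 bases of St6galnac2 on the other strand and had 260, 172 and 199 reads in WT and 320, 404 and 376 in SIRPα KO. Snhg16 rose by 0.69 on the log2 scale (SE 0.18, edgeR adjusted p = 0.0492). Strand is not stated to have been used in counting, so reads in the overlap cannot be told apart. Of the 14 alternatives 5 called it, with adjusted p from 0.00514 to 0.176. In edgeR it did not pass without WT replicate 1 or 2 or any SIRPα KO replicate, with the codes summed, with the replicate block, with no low-count filter or with upper quartile factors. Outside the stretch, Rhbdf2 on one side (log2 fold change 0.36, edgeR adjusted p = 0.222) and Jmjd6 on the other (0.25, adjusted p = 0.185) did not pass the threshold. For both genes every SIRPα KO library still lay above every WT library. Farther out, Ubald2 (-1.03, adjusted p = 0.0316), the sphingosine kinase gene Sphk1 (-2.10, adjusted p = 0.0379) and Mettl23 (WT mean 1.99 times that of SIRPα KO, adjusted p = 0.0143) fell, all from edgeR. Ubald2 did not pass with the offset for transcript length and GC content (edgeR adjusted p = 0.123) and has a near-identical copy, Gm7367, and Mettl23 shares transcript sequence with its neighbours Srsf2 and Mfsd11. Sphk1 did not pass in edgeR without WT replicate 1 (adjusted p = 0.0763) or WT replicate 2 (adjusted p = 0.0627). Snhg16, Ubald2, Sphk1 and Mettl23 did not pass in edgeR in any of the 3 fits that left out a SIRPα KO replicate.

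**Figure D4:**
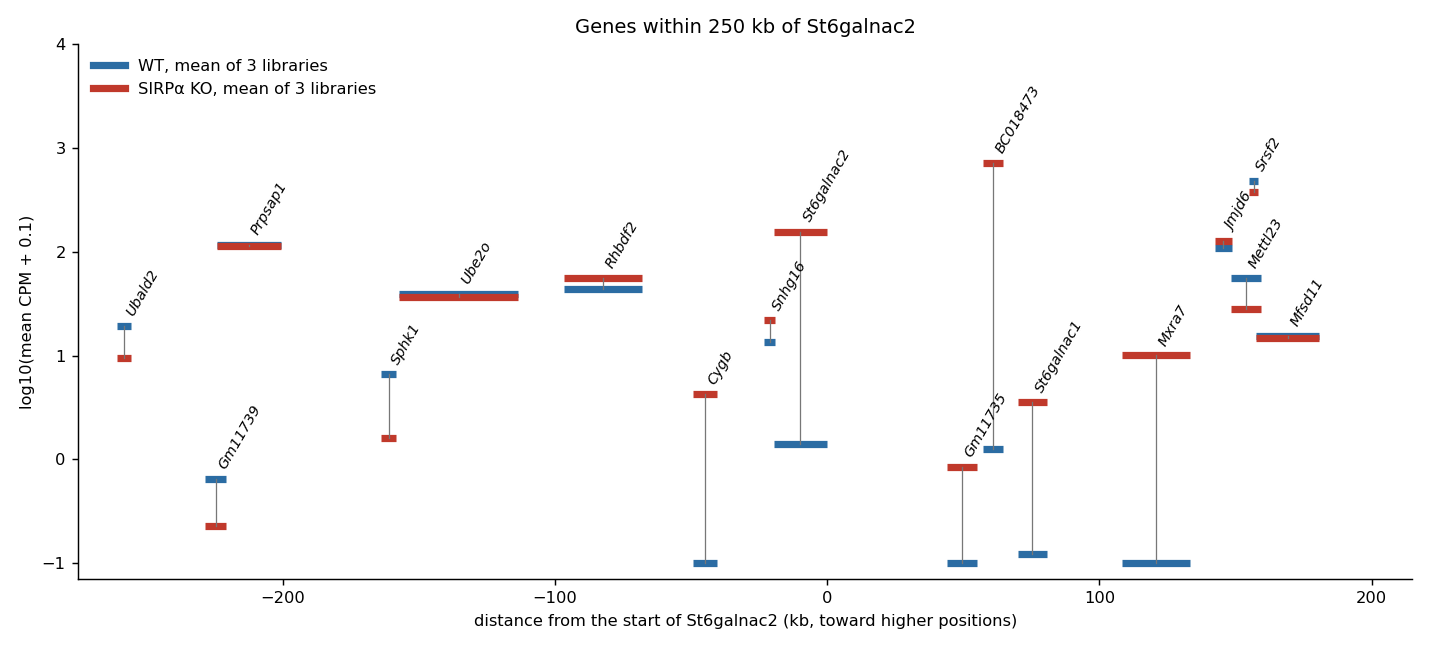
Mean CPM of 3 libraries in WT (blue bars) and SIRPα KO (red bars) for the 17 genes within 250 kb of St6galnac2. The x axis gives each gene's span as distance from the start of St6galnac2, and the y axis is log10(mean CPM + 0.1), a log scale on which -1 is a mean of 0. The bars part widely for 6 of the 7 genes from Cygb to Mxra7, with Snhg16 the exception, and lie close together for Rhbdf2 and Jmjd6 just outside that stretch.

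Over the 6 libraries, the genes whose centred log2 CPM profile was nearest to that of St6galnac2 by root mean square difference were the histone gene H2ac7 (1.42), Mxra7 (1.55), AA465934 (1.64), the pseudogene Gm18562 (1.75) and BC018473 (1.90). Mxra7 and BC018473 are neighbours of St6galnac2, AA465934 lies elsewhere on chromosome 11, and H2ac7 and Gm18562 lie on chromosome 13. H2ac7 and Gm18562 have transcripts near-identical to those of other genes, so their reads are uncertain. Among the sialyltransferases St6galnac1 was nearest (2.25, rank 15 of 13622 genes), and St6galnac4 followed at 3.75, rank 2192. Since St6galnac2 was selected on its rise, a gene near 0 in WT and present in SIRPα KO lies close to it by construction. H2ac7, Mxra7, AA465934, Gm18562, BC018473 and St6galnac1 also passed the filter on low counts only through SIRPα KO. These distances and ranks are therefore a description without a test.

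The rest of the sialic acid pathway was read from 8 lists holding 84 genes, of which 68 were in the table and 57 were tested. Of these 57, 3 rose and 2 fell, beside 11.7% of all genes, and their median log2 fold change was 0.011. No gene of the synthesis and transport, removal and O-acetylation, O-glycan core, N-glycan antenna or receptor lists passed the threshold in edgeR. Over all lists 21 of the 57 genes had an unadjusted p under 0.05, beside 32% of all genes tested, and DESeq2 called 13, beside 22.9% of all genes.

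Of the other sialyltransferases, 5 of 10 were in the table and 3 were tested, and none passed in edgeR. St8sia4, which builds polysialic acid, had the highest CPM of them, with 763, 690 and 328 reads in WT and 1151, 1109 and 1249 in SIRPα KO. Every SIRPα KO library lay above every WT library, with a log2 fold change of 0.87 (SE 0.29, edgeR adjusted p = 0.0892) that was 0.27 with the offset for transcript length and GC content. St3gal5, which makes the first ganglioside GM3, had a log2 fold change of 0.59 (adjusted p = 0.198) and St6galnac3 one of 0.11 (adjusted p = 0.799), both with overlapping groups in edgeR's fit. The value of St6galnac3 was -0.39 with the offset for transcript length and GC content and -0.12 without WT replicate 3. St3gal5 and St6galnac3 fall outside the rule for named genes and were added after their values were seen.

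For donor supply, no gene passed the threshold. Of 8 genes for synthesis and transport, 5 were higher and 3 lower, with a median log2 fold change of 0.061. Cmas, which makes CMP-sialic acid, had the highest CPM of them (log2 fold change -0.12, SE 0.11, edgeR adjusted p = 0.479). Of 5 tested genes for removal and O-acetylation the median was -0.047, and Ctsa, the lysosomal partner of the sialidase Neu1, had the highest CPM (-0.16, adjusted p = 0.395). Of 14 O-glycan core enzymes 6 were higher and 8 lower (median -0.19), with the highest CPM for Galnt1, which starts O-glycans (0.67, SE 0.28, edgeR adjusted p = 0.146). Of 12 tested N-glycan antenna enzymes 7 were higher and 5 lower (median 0.24), with the highest CPM for Mgat2 (0.24, adjusted p = 0.251). Of 12 receptors, 9 were in the table and 3 were tested.

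Among fucosyltransferases, Fut8, which adds the core fucose of N-glycans, rose. It had 984, 936 and 609 reads in WT and 2321, 2316 and 2003 in SIRPα KO, with groups far apart (log2 fold change 1.27, SE 0.20, edgeR adjusted p = 0.0144). The other 3 tested genes of that list did not pass. Of 8 tested carriers of sialylated chains, 2 rose and 2 fell, beside 11.7% of all genes called. Selplg, the P-selectin ligand, fell (-0.44, SE 0.081, edgeR adjusted p = 0.0194) and had the highest CPM, with 16011 to 19998 reads in WT and 13636 to 16030 in SIRPα KO. Spn, or CD43, fell as well (-0.49, adjusted p = 0.0463). Ptprc, or CD45, rose (0.90, adjusted p = 0.0484), with a log2 fold change of 0.38 (adjusted p = 0.0787) after the length and GC offset. Cd164, or endolyn, rose too (0.79, adjusted p = 0.0423), but did not pass with that offset either (0.51, edgeR adjusted p = 0.0581). Of the 14 alternatives, 10 called Fut8, 10 Selplg, 7 Ptprc, 7 Cd164 and 6 Spn. Without any single SIRPα KO replicate, 0 of the 57 genes passed in edgeR, with 11 to 13 at an unadjusted p under 0.05, beside 20.7% to 22.5% of all genes in these fits. Without WT replicate 2 or 3, 8 and 14 genes passed.

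**Figure D5:**
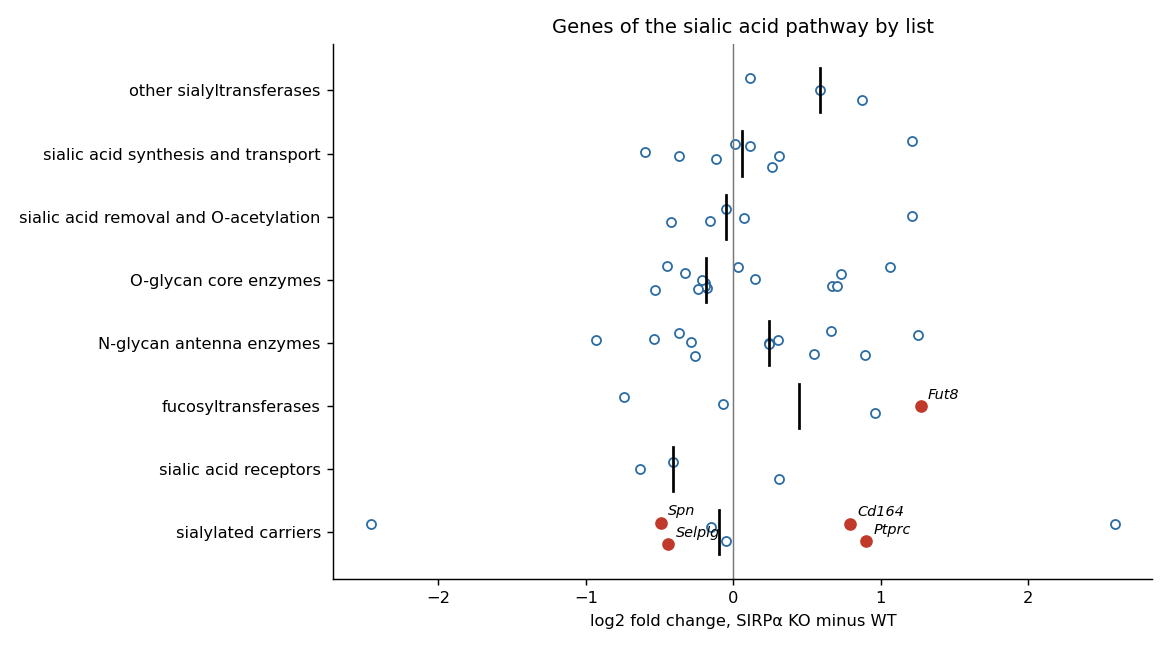
Log2 fold change (x axis, SIRPα KO minus WT) of each tested gene of the 8 pathway lists (rows). Filled red points passed the threshold in edgeR and are named, open blue points did not, vertical offsets only separate points, and black ticks are list medians, such as 0.59 for other sialyltransferases and 0.061 for synthesis and transport.

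Fold changes in these libraries also followed transcript length. Over 9124 genes whose average log2 CPM reached 3, the shortest decile of transcripts had a median log2 fold change of -0.55 and the longest decile one of 0.47. The 500 tested genes nearest in length to St6galnac4 had a median of 0.15, and those nearest to St3gal6 and St3gal1 had medians of 0.18 and 0.33, opposite in sign to the changes of these genes. The offset for both features gave log2 fold changes of 0.59 for St6galnac4 (edgeR adjusted p = 0.0243), -1.58 for St3gal6 (adjusted p = 0.0186) and -1.30 for St3gal1 (adjusted p = 0.0362).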

How the data were processed

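Per the labels and the methods of the study, RNA was amplified with the SMARTer Ultra Low Input kit and sequenced on a NextSeq 500. The authors processed reads in Partek and aligned them with STAR to mm10 with GENCODE M21 annotation, and the submitters' processing notes name Partek 10.0, STAR 2.7.8 and DESeq2. The authors deposited an estimated count per gene and library, made by Partek from the aligned reads and not scaled for depth. How reads on overlapping genes were counted is not given in the sources used here.

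Estimated counts were rounded. Genes were kept by filterByExpr (10 reads in a library of median size, 15 in total), scaled by TMM and tested on genotype alone with edgeR 4.0.16 (glmQLFit, glmQLFTest, R 4.3.3), with Benjamini-Hochberg adjustment over 13623 genes. The procedure was tested on simulated data. The members and lists were chosen with earlier results of these data known. Genes named are the 10 members, list genes past the threshold with the most abundant gene of each list, genes past it within 250 kb of St6galnac2, the 5 nearest profiles and Sirpa. Others were added after their values were seen. A result of the receptor list is not reported here. Levels per kb used GENCODE lengths. Near-identical copies had at least 95% identity over 50% of a transcript (BLAST+ 2.17.0). Symbols matched the annotation for 17400 genes directly and 189 through synonyms. Intervals on reads and the floor of 3 reads cover counting error only. Promoter windows came from RefSeq and were found for 6 members.

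The alternatives were DESeq2 1.42.0, RLE and upper quartile factors, no filter, a filter of 1 CPM in 3 libraries, a replicate block, libraries of a code summed, an offset for length and GC content, leaving out each library in turn and, for levels, the median transcript length. The same-numbered libraries were not treated as pairs.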

Additional observations from a re-analysis of the deposited data

How the results depend on the processing

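Without 1 library in turn, the count ran from 16 to 2606 over all genes (1600 with all libraries), from 0 to 3 for the 9 other sialyltransferases (3, with St6galnac1), from 0 to 14 for the pathway lists (5) and from 1 to 9 for the other genes near St6galnac2 (8), with 0 sialyltransferases and 0 pathway genes in each fit that left out a SIRPα KO replicate. With libraries of a shared code summed, these counts were 10, 0, 0 and 1. DESeq2 called 3118 genes, 13 of the pathway lists, and 4 of the 9 sialyltransferases. St6galnac1, which entered the test through its SIRPα KO reads alone, is included in the counts of the 9 here and below wherever it passed. Without the filter on low counts, 3 pathway genes were called. Fits without WT replicate 1, 2 or 3 called 1111, 2309 and 2606 of all genes, and those without SIRPα KO replicate 1, 2 or 3 called 16, 17 and 17. The cause of these shifts was not tested. The log2 fold change of St6galnac2 ran from 6.24 to 8.53. Of 41 named genes recomputed under the alternatives, 3 changed sign, and none of these 3 passed the threshold under any alternative. The log2 fold change of St3gal2 ran from -0.32 without WT replicate 3 to 0.06 without WT replicate 1. That of St6galnac3 ran from -0.12 without WT replicate 3 to 0.36 without WT replicate 1, and was -0.39 with the length and GC offset. That of Scgb1a1 ran from -0.52 without SIRPα KO replicate 3 to 0.53 without SIRPα KO replicate 1, with 0.07 without WT replicate 2, and was 0.50 with the offset.

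Libraries of the same number in both groups shared only a number, with correlations of their deviations from the group means of -0.0422, 0.0518 and 0.00747. With a replicate block, 1118 of all genes, 2 of the 9 sialyltransferases, 4 pathway genes and 6 neighbours passed, and the log2 fold change of St6galnac2 was 7.08. St3gal6 did not pass with the block (adjusted p = 0.0649 from edgeR). Upper quartile factors moved the median of all genes to -0.125. Reads of St6galnac1 and Gm11735, at most 101 in a library, limit the precision of their values.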
